A study of Arabidopsis thaliana with 204 samples.

Results

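The clade A protein phosphatases 2C (PP2Cs) of Arabidopsis thaliana were taken by gene identifier. They are ABI1 (AT4G26080), ABI2 (AT5G57050), HAB1 (AT1G72770), HAB2 (AT1G17550), HAI1 (AT5G59220), HAI2 (AT1G07430), HAI3 (AT2G29380), AHG1 (AT5G51760) and PP2CA (AT3G11410), which make 9 of the 33602 loci measured. Of these, 7 reached a mean of 1 normalized read count over the tested samples and were tested, whereas HAI3 (mean of 0.356) and AHG1 (mean of 0.0262) were below it. RNA was sequenced from Col-0 plants 28 days old, grown in 9 h of light and 15 h of darkness. In FRtip, far-red light on the leaf tip lowered the ratio of red to far-red light (R/FR) there to 0.05, and in white light (WL) it was 2.0 over the whole plant. The leaf tip and the abaxial (lower) and adaxial (upper) sides of the petiole base were each harvested between 60 and 300 min of treatment, and the leaf tip also at 40 min. A sample pooled leaf sections of 13 plants, and there were 4 replicates of each condition, or 3 for WL leaf tips at 40 min.

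Clade A PP2Cs are the negative regulators at the core of abscisic acid (ABA) signaling. Without ABA they dephosphorylate and hold inactive the SnRK2 kinases of subclass III. When ABA binds a receptor of the PYR/PYL family, the complex docks on the phosphatase and inhibits it, and the released kinases phosphorylate targets such as the ABF and ABI5 transcription factors and the guard cell anion channel SLAC1. Transcripts of several clade A PP2Cs are known to accumulate when ABA rises, which forms a negative feedback. ABI1 and ABI2 were named after ABA-insensitive mutants, HAB1 and HAB2 are their closest relatives, and PP2CA, AHG1 and the HAI proteins form the other branch of the clade.

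ABF and ABI5 proteins bind DNA with an ACGTG core, so the bases before the annotated start of 4 members are shown to let their promoters be compared. The sequences are 300 bases from RefSeq's annotation of the TAIR10.1 assembly, read on the strand of the gene and ending at the base before its start. They are PP2CA (chr3:3585851-3586150, minus strand), HAI2 (chr1:2282829-2283128, minus strand), HAB2 (chr1:6033970-6034269, plus strand) and ABI2 (chr5:23086822-23087121, plus strand). Capitals mark ACGTG on either strand, which reads CACGT where it lies on the other one.
PP2CA: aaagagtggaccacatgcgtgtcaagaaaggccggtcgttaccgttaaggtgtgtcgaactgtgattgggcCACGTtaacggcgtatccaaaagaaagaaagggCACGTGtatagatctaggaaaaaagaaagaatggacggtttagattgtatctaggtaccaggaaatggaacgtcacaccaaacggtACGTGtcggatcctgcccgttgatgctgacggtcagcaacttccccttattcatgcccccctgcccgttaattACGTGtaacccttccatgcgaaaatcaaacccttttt
HAI2: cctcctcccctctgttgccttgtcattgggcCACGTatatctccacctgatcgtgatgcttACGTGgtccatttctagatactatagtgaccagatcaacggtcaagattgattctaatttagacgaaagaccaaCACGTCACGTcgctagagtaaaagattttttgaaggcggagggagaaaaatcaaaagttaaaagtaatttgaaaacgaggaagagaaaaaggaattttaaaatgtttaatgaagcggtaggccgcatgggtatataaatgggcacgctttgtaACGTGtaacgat
HAB2: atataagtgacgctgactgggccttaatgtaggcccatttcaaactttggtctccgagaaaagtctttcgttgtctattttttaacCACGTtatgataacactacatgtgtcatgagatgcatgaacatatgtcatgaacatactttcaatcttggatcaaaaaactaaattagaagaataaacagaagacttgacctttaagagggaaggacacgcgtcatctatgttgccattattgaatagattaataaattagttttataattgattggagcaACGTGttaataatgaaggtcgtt
ABI2: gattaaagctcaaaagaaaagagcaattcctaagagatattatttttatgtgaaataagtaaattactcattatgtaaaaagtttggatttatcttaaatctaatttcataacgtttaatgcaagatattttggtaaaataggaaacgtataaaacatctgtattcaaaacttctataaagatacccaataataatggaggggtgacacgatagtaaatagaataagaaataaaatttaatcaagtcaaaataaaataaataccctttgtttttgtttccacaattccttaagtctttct
ACGTG was found 5 times before HAI2 and 5 times before PP2CA, where 2 of the matches share a CACGTG, which is its own reverse complement and counts on both strands. HAB2 had 2 matches, and ABI2 had 0. Of the members not shown, ABI1 had 1, HAB1 1, HAI1 0, HAI3 2 and AHG1 2. Of 27443 protein-coding genes, 25.6% held ACGTG at least once in the same stretch, 9.94% at least 2 times and 3.44% at least 3 times. A match is a description of the letters and not of binding. None of the 9 stretches overlapped another annotated gene.

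Reads counted on genes ran between 805840 and 5538648 in the 199 tested samples (median 2304846). Leaf tips were the shallowest, their median of 1710470 reads comparing with 2797815 for abaxial and 2328722 for adaxial petiole samples. As a check of the labels, the low R/FR genes PIL1, HFR1 and HAT4 summed to a median level of 2582 in FRtip and 63.7 in WL in the leaf tip. Genes of the abaxial side (KAN1, KAN2, FIL, YAB3 and ARF4) summed to a median of 536 in FRtip and 520.3 in WL in the abaxial petiole, against 306 in FRtip and 302 in WL in the adaxial petiole. The annotated spans of ABI1 and of AT4G26070 on the other strand share 22 bases, and no source used here states whether strand was used in counting. AT4G26070 did not pass the test in the leaf tip at 100 to 180 min (log2 fold change 0.14 ± 0.11 SE, adjusted p = 0.38).

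In the leaf tip, transcripts of most clade A PP2Cs rose in FRtip, and HAB2 was the exception. At 100 to 180 min, 6 of the 7 tested members were higher in FRtip at an adjusted p below 0.05 (limma, Benjamini-Hochberg), whereas 12.4% of the 19964 genes tested were called higher. The largest ratios were those of the scarce HAI2 and HAI1, followed by ABI1, ABI2, HAB1 and PP2CA. At 40 to 80 min, 4 of 7 were higher (ABI1, ABI2, HAI2 and PP2CA; 4.22% of all genes), and at 300 min the same 6 as at 100 to 180 min were higher (5.26% of all genes). The median log2 fold change of the 7 was 0.43, 0.68 and 0.90 in the 3 windows, and no member fell in any of them. Over all genes the median of 100 to 180 min was -0.00833. In such bulk samples, fewer cells of a type and less RNA per cell cannot be told apart.

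ABI1 differed little between treatments in the first hour and then separated. At 80 min, the 4 FRtip samples had 245, 313, 269 and 329 normalized read counts, against 133, 209.6, 183 and 173 in the 4 WL samples. Every FRtip sample was above every WL sample, which was the case for 4.45% of all genes at that time. At 120 min the values were 343, 457, 349 and 417 in FRtip and 181, 199, 171 and 174 in WL, and at 300 min they were 481, 534, 546 and 537 in FRtip and 243, 267, 244 and 282 in WL. The FRtip mean was 1.65 times the WL mean at 80 min, 2.16 times at 120 min and 2.03 times at 300 min. The log2 fold change was 0.30 ± 0.08 (SE, adjusted p = 0.00585) at 40 to 80 min, 0.93 ± 0.06 (SE, adjusted p = 1.04e-19) at 100 to 180 min and 1.02 ± 0.14 (SE, adjusted p = 5.93e-08) at 300 min. Its effect at 100 to 180 min exceeded that at 40 to 80 min by 0.63 on the log2 scale (adjusted p = 5.78e-06). Without replicate 4, the adjusted p of the early window was 0.056. Such a growth of the effect between these windows was called for 3 of 7 members, ABI1, HAB1 and HAI2 (3.69% of genes), and between 100 to 180 min and 300 min for 0 of 7 by limma (1.29% of genes, with HAB1 at an unadjusted p below 0.05) and for 0 by edgeR.

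ABI2 parted early in the leaf tip, but its call at 60 min was fragile. At that time it had 85.3, 93.5, 92.8 and 85.3 in FRtip and 75.7, 61.7, 69.5 and 74.5 in WL, and it was the only member called at that time by the DEG rule of the study (unadjusted p below 0.01 and log2 fold change beyond 0.3), which took 2.68% of all genes as higher. The call was lost by an adjusted p (0.177), with the replicate block, in the fit of the whole tissue, with no filter or a mean of at least 10, and without each of the 4 replicates in turn. By 80 min the values were 105, 90.5, 134 and 180.3 in FRtip and 75.8, 76.1, 73 and 61.2 in WL, so that the FRtip samples were also the more spread. The groups did not overlap at 80 min, as for 4.45% of all genes, and the adjusted p was 0.124 in the fit of that time alone. At 300 min ABI2 had 160.4, 135, 152 and 127 in FRtip and 89, 76.5, 84.1 and 88.2 in WL. Its log2 fold change was 0.43 ± 0.08 (SE, adjusted p = 5.77e-05), 0.68 ± 0.06 (SE, adjusted p = 3.59e-14) and 0.75 ± 0.14 (SE, adjusted p = 4.11e-05) in the early, middle and late window.

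PP2CA, known for a strong role in ABA signaling of seeds and guard cells, showed its largest ratio early. At 80 min it had 471, 492, 563 and 619 in FRtip and 273, 254, 252 and 269 in WL, a ratio of means of 2.05. At 180 min the values were 231, 255, 268 and 307 in FRtip and 195, 219, 231 and 225 in WL, and the groups overlapped. At 300 min the values were 451, 329, 402 and 420.2 in FRtip and 280.4, 227, 244 and 265 in WL, and the ratio was 1.58. The window averages do not show this course, and the log2 fold change was 0.57 ± 0.08 (SE, adjusted p = 1.39e-07), 0.56 ± 0.06 (SE, adjusted p = 2.96e-11) and 0.65 ± 0.14 (SE, adjusted p = 0.000384). Between the first 2 windows it changed by -0.01 (95% interval -0.21 to 0.19).

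HAI2 had the largest ratio of the members at 100 to 180 min, though its WL samples held few reads. In FRtip it had 20.8, 8.54, 24.7 and 17.5 at 80 min, against 1.89, 6.76, 5.96 and 2.66 in WL. At 300 min the FRtip samples had 58, 41.1, 61.6 and 52.2 and the WL samples 17.1, 11.5, 12.2 and 14.3. The groups were apart at 80 min, as for 4.45% of all genes. Over 100 to 180 min its mean was 22.7 in FRtip and 4.07 in WL, and the log2 fold change was 2.44 ± 0.25 (SE, adjusted p = 6.85e-12). Summed over the samples of that window, 309 reads in FRtip stood against 57 in WL, a ratio of 5.51 after scaling for depth (95% interval of counting error 4.14 to 7.45). Its calls at 40 to 80 min (log2 fold change 1.15 ± 0.34 SE, adjusted p = 0.0151) and at 300 min (1.88 ± 0.57 SE, adjusted p = 0.0207) were lost without replicate 1 (adjusted p of 0.0849 and 0.0868), 3 (0.114 and 0.0777) or 4 (0.126 and 0.0965). The late one was also lost with a pseudocount of 0.5 (0.0691). Its growth between the first 2 windows (1.29, adjusted p = 0.0481) was lost by edgeR (0.174) and without each replicate in turn.

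HAI1 was read a few times per sample, so its levels are coarse. At 120 min it had 7.79, 29.7, 11 and 20.8 in FRtip and 1.31, 0, 0 and 4.9 in WL. At 300 min the groups overlapped, with 18.8, 2.28, 19.2 and 4.45 in FRtip and 0, 0, 0 and 2.6 in WL. The summed reads at 100 to 180 min were 114 in FRtip and 29 in WL, a ratio of 4.0 after scaling (95% interval 2.64 to 6.23). At 300 min 30 reads in FRtip stood against 2 in WL, a ratio of 17.1 with a wide interval (4.33 to 147). These intervals cover counting error only. On the scale of log2(count + 1), which understates the change of such a gene, its log2 fold change was 1.55 ± 0.34 (SE, adjusted p = 0.000208) at 100 to 180 min and 2.74 ± 0.76 (SE, adjusted p = 0.00982) at 300 min. The late call was lost without replicate 1 (adjusted p = 0.165) or replicate 3 (0.13).

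HAB1 was higher in FRtip than in WL at 100 to 180 and at 300 min, while its level fell in both treatments over those hours. The FRtip mean was 195 at 100 min and 69.4 at 300 min, and the WL mean was 115 and 36.5. At 80 min it had 189, 217, 191 and 229.8 in FRtip and 153, 147, 153 and 149 in WL. At 300 min it had 76.8, 54.8, 84.9 and 61.1 in FRtip and 39, 44.7, 29.8 and 32.4 in WL. At 80 min the groups were apart, as for 4.45% of all genes. At 60 min (means of 173 in FRtip and 162 in WL) and at 180 min they overlapped. It met the DEG rule at 80 min, but not by an adjusted p (0.0567), with the replicate block or without replicate 2 or 4. The log2 fold change was 0.12 at 40 to 80 min (adjusted p = 0.5), 0.58 ± 0.06 (SE, adjusted p = 4.58e-11) at 100 to 180 min and 0.90 ± 0.14 (SE, adjusted p = 3.51e-06) at 300 min. From the first to the second window it changed by 0.46 (adjusted p = 0.00204).

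HAB2, its closest relative, did not pass any test of the FRtip effect. At 120 min, as an example, it had 129, 148, 139 and 108 in FRtip and 140.3, 118, 117 and 110.2 in WL. The groups overlapped at all 9 time points of the leaf tip. Over 100 to 180 min the means were 120.5 in FRtip and 121 in WL, and the log2 fold change was -0.01 with a 95% interval of -0.14 to 0.12. Lower bounds of the other intervals in this window, such as 0.43 for PP2CA and 0.45 for HAB1, lay above that range.

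HAI3 and AHG1, which is best known from seeds, were at or near 0 in these leaves. HAI3 had 17 reads in the 36 FRtip and 20 in the 35 WL samples of the leaf tip, 6 in FRtip and 4 in WL abaxially and 4 in FRtip and 2 in WL adaxially. AHG1 had 0 reads in FRtip and 2 in WL there, 1 in each treatment in the abaxial petiole and 0 in FRtip and 1 in WL adaxially. A difference between treatments was not detectable at this depth.

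**Figure D1:**
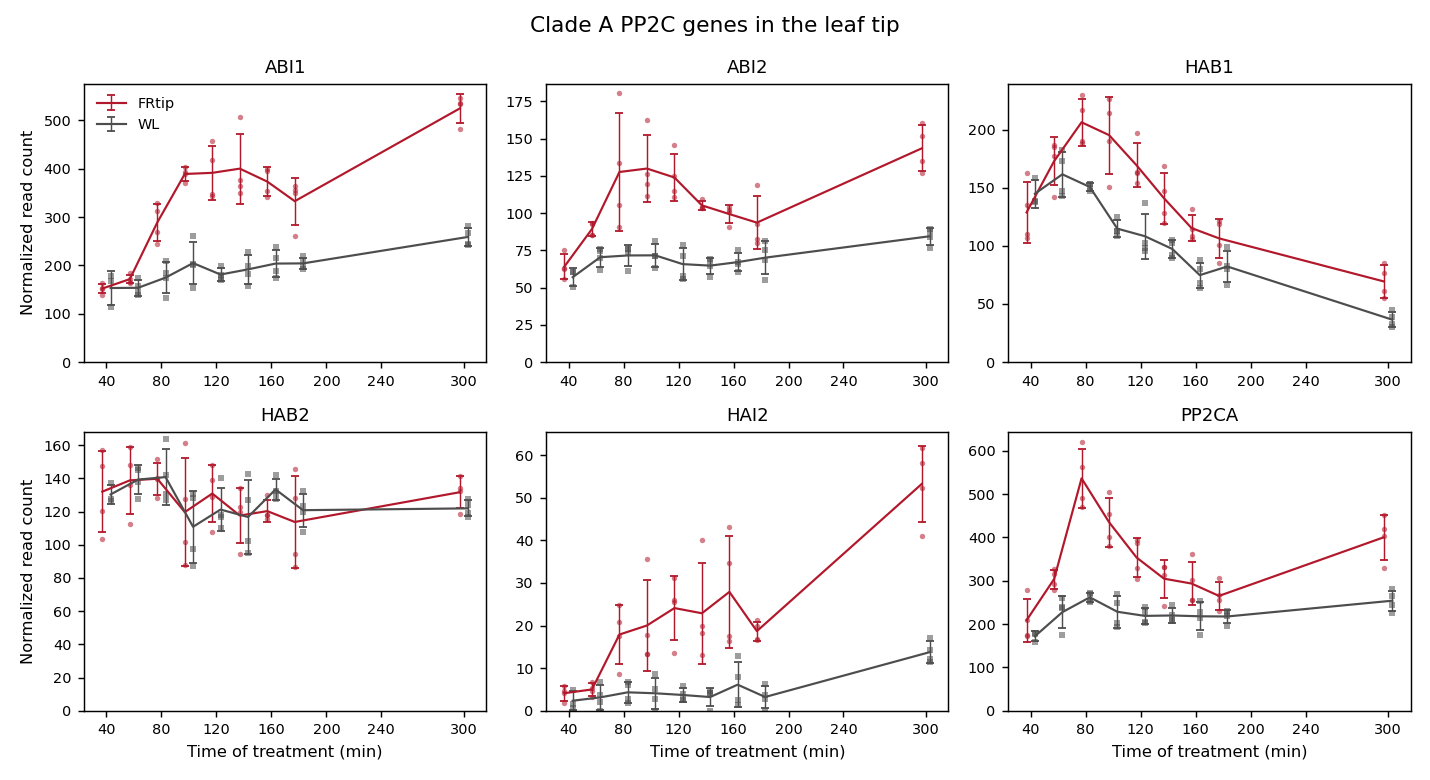
Normalized read counts of ABI1, ABI2, HAB1, HAB2, HAI2 and PP2CA in the leaf tip against minutes of treatment, with a point per sample and the mean ± SD of the 4 samples of FRtip and of WL (3 in WL at 40 min). The FRtip mean lies above the WL mean from 80 min on in 5 of the panels, with overlap of single samples at some times, and the HAB2 series overlap throughout.

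In the petiole, which received no far-red light itself, FRtip effects on the members were few before 180 min and more numerous at 300 min, when 3 of 7 members were called abaxially and 4 of 7 adaxially. At 60 to 80 min, 0 of 7 members were called on either side (limma, with 0 at an unadjusted p below 0.05, and 0 by edgeR), where 0.01% of genes were called higher abaxially and 0.00501% adaxially. At 100 to 180 min ABI1 and ABI2 were called higher abaxially (2 of 7, against 5.78% of genes) and ABI2 adaxially (1 of 7, against 3.15%). At 300 min those of the abaxial petiole were ABI1, ABI2 and PP2CA (2.67% of genes were called higher), and those of the adaxial petiole were ABI1, ABI2, HAI2 and PP2CA (1.26%). The median log2 fold change of the members at 300 min was 0.65 abaxially and 0.96 adaxially.

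ABI1 came up between 160 and 180 min on both sides. In the abaxial petiole it had 93.7, 115, 91.3 and 75.8 in FRtip and 84.6, 82.7, 80.6 and 67.7 in WL at 160 min, with overlap. At 180 min it had 167, 171, 111 and 180.0 in FRtip and 83.6, 77, 82.8 and 87.9 in WL. At 300 min it had 226, 199.9, 249 and 190.2 in FRtip and 119.8, 107, 119.9 and 126 in WL. Neither of the later times showed overlap, which 5.79% and 6.43% of all genes shared. Adaxially the values at 180 min were 162, 173, 113 and 157 in FRtip and 85.6, 96.5, 78.1 and 98.5 in WL. At 300 min they were 255, 273, 248 and 208 in FRtip and 128, 127, 116 and 130.0 in WL. The adaxial groups of 300 min did not overlap, as for 4.05% of all genes. The log2 fold change at 300 min was 0.86 ± 0.13 (SE, adjusted p = 9.07e-06) abaxially and 0.96 ± 0.14 (SE, adjusted p = 2.06e-06) adaxially. Compared with 100 to 180 min, the effect was larger at 300 min by 0.57 abaxially (adjusted p = 0.0164) and by 0.79 adaxially (adjusted p = 0.000594). The abaxial call was lost without replicate 1 (adjusted p = 0.171), 2 (0.0865) or 3 (0.132). The contrast is with the mean of 100 to 180 min, which includes the times before the rise. At 180 min alone the FRtip mean was 1.90 times the WL mean abaxially and 1.69 times adaxially. At 300 min the ratios were 1.83 and 1.96, so abaxially the ratio was no larger than at 180 min.

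ABI2 was the only member called in both petiole sides at 100 to 180 min, with log2 fold changes of 0.28 ± 0.09 (SE, adjusted p = 0.0437) abaxially and 0.35 ± 0.09 (SE, adjusted p = 0.00576) adaxially. Its means there were 49.2 in FRtip and 39.5 in WL abaxially, and 47.9 in FRtip and 36.9 in WL adaxially. These differences were small, and the abaxial call was lost with no filter on low counts (adjusted p = 0.0592), with samples centred on their median (0.0502) and without replicate 1, 3 or 4 (0.163, 0.145 and 0.135), the adaxial one without replicate 3 (0.0647) or 4 (0.128). At 300 min ABI2 had 92.5, 60.4, 108 and 82.4 in FRtip and 58.8, 42.5, 43.8 and 49.3 in WL abaxially. Adaxially it had 94.8, 85.7, 75.5 and 78.7 in FRtip and 60.8, 27.7, 50.1 and 36.5 in WL. The groups were apart on both sides, as for 6.43% of all genes abaxially and 4.05% adaxially. The log2 fold change was 0.79 ± 0.21 (SE, adjusted p = 0.0102) abaxially and 0.97 ± 0.19 (SE, adjusted p = 0.000747) adaxially. Without replicate 1, 3 or 4 the adjusted p of the abaxial one was 0.0587, 0.163 and 0.0517.

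PP2CA did not pass the test in the petiole before 300 min. At 180 min it had 91.2, 85.7, 68.9 and 79.5 in FRtip and 75.5, 97.6, 86.1 and 78.7 in WL in the abaxial petiole, with full overlap. At 300 min it had 112, 138, 124 and 116 in FRtip and 66, 86.3, 80.9 and 78 in WL abaxially, and 147, 108, 139 and 143 in FRtip and 89.4, 85.1, 82.6 and 89.9 in WL adaxially. Every FRtip sample was above every WL sample on both sides, which was so for 6.43% of all genes abaxially and 4.05% adaxially. The log2 fold change was -0.01 at 100 to 180 min (95% interval -0.11 to 0.09) and 0.65 ± 0.11 (SE, adjusted p = 5.08e-05) at 300 min abaxially. Adaxially it was -0.01 and 0.62 ± 0.13 (SE, adjusted p = 0.00238) in those windows. From the middle to the late window the effect grew by 0.66 abaxially (adjusted p = 0.000409) and by 0.62 adaxially (adjusted p = 0.00903). By this test, ABI1 and PP2CA were the only members with a larger effect in the late window than in the middle one. They were 2 of 7 on each side, against 0.826% of genes abaxially and 0.541% adaxially. The adaxial growth of PP2CA was lost without replicate 1 (adjusted p = 0.0924), 3 (0.122) or 4 (0.106), and its adaxial effect at 300 min without replicate 3 (0.0523).

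HAI2 and HAI1 were scarce in the petiole, and at 300 min both had more reads in FRtip on each side. HAI2 had 11.1, 9.3, 11.7 and 8.08 in FRtip and 2.15, 3.48, 7.14 and 3.79 in WL abaxially, and 29.3, 20.2, 20.1 and 14.2 in FRtip and 4.61, 6.69, 5.7 and 3.65 in WL adaxially. These groups did not overlap, as for 6.43% of all genes abaxially and 4.05% adaxially. Only the adaxial difference passed the test, at a log2 fold change of 1.81 ± 0.44 (SE, adjusted p = 0.00754), and without replicate 1 or 3 its adjusted p was 0.133 and 0.0771. Abaxially the log2 fold change was 1.18 (adjusted p = 0.0814, and 0.000823 with a pseudocount of 5). The summed reads were 92 in FRtip and 27 in WL adaxially, a ratio of 3.93 (95% interval 2.53 to 6.28), and 59 in FRtip and 30 in WL abaxially, a ratio of 2.24 (1.42 to 3.6). HAI1 had 21 reads in FRtip and 5 in WL in the adaxial samples of 300 min, a ratio of 4.84 (1.78 to 16.4), and its log2 fold change was 1.57 (adjusted p = 0.0572, and 0.0404 by edgeR). Abaxially HAI1 had 12 reads in FRtip and 7 in WL, a ratio of 1.95 (0.709 to 5.86). Those groups overlapped, and the abaxial difference of HAI1 was not called.

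HAB1 and HAB2 did not pass the test in either side of the petiole at any window, apart from HAB1 abaxially at 300 min with samples centred on their median (0.38, adjusted p = 0.0497). At that time HAB1 had 54, 54.2, 62.7 and 44.2 in FRtip and 36.6, 41.1, 42.8 and 44.9 in WL abaxially. The log2 fold change was 0.36 (95% interval 0.12 to 0.61, adjusted p = 0.0617) abaxially and 0.03 (-0.20 to 0.26) adaxially. For HAB2 it was 0.18 (-0.01 to 0.37) abaxially and 0.20 (-0.03 to 0.43) adaxially.

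**Figure D2:**
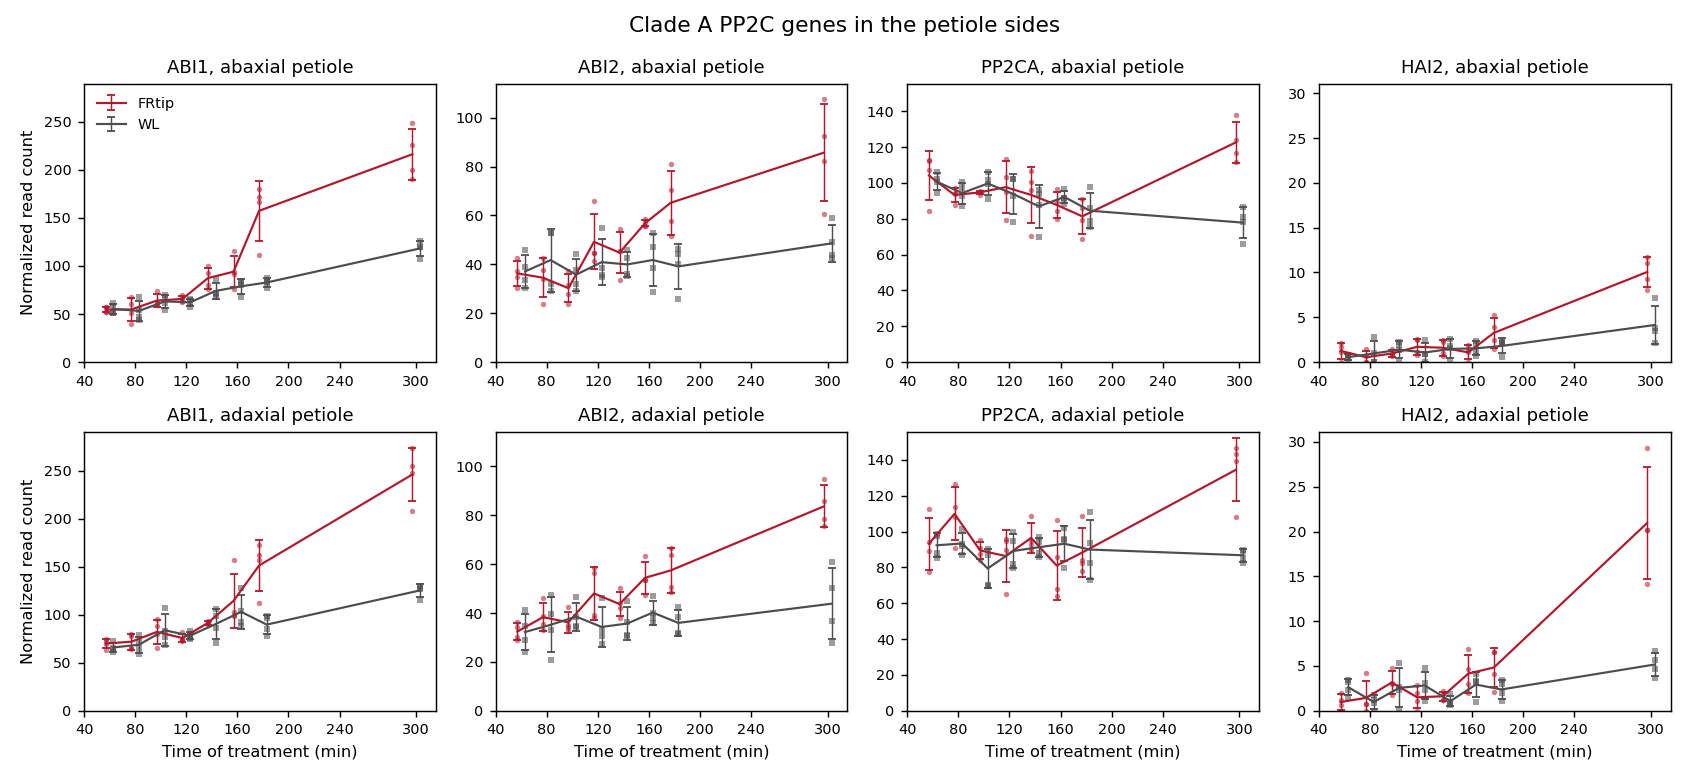
Normalized read counts of ABI1, ABI2, PP2CA and HAI2 in the abaxial and adaxial petiole against minutes of treatment, with a point per sample and the mean ± SD of 4 samples of FRtip and of WL. The treatments mostly overlap until 140 min, ABI1 and ABI2 part by 180 min, and at 300 min every FRtip sample of the 4 genes lies above every WL sample on both sides.

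The DEG rule was also read at single time points, where many calls rest on an unadjusted p. In the leaf tip, 0 members were called at 40 min, 1 at 60 min (ABI2), 5 at 80 min and 4 at 100 min, against 1.71%, 2.68%, 3.23% and 3.59% of all genes called higher. All tested members but HAB2 were called at 120, 140 and 300 min (6 of 7, against 4.5%, 4.76% and 5.46% of genes), 5 at 160 min (4.62%) and 2 at 180 min, HAI2 and ABI1 (4.93%). When the adjusted p decided the call (below 0.05), 0 members were called at 60 min, 1 at 80 min (PP2CA), 4 at 100 min, 5 at 120 min, 3 at 140 and at 160 min, 2 at 180 min and 5 at 300 min. With the replicate block the rule gave 0 at 60 min, 2 at 80 min, 3 at 140 min and 4 at 300 min. Leaving out 1 replicate gave 0 at 60 min each time, and between 1 and 5 at 80 min, 2 and 5 at 140 min and 3 and 6 at 300 min. In the abaxial petiole 0 members were called from 60 to 160 min (0.496%, 0.366%, 0.796%, 1.98%, 2.62% and 3.54% of genes at the 6 times), 2 at 180 min (3.78%) and 4 at 300 min (3.49%), the fourth being HAI2. In the adaxial petiole ABI2 was called at 160 min (2.12%), ABI1 and ABI2 at 180 min (2.08%) and 5 members, HAI1 among them, at 300 min (2.2%). By an adjusted p, 1 member at 180 min (ABI1) and 2 at 300 min were left abaxially, and adaxially 0 at 160 min, 0 at 180 min and 3 at 300 min. The adaxial call of ABI2 at 160 min was also lost in the fit of the whole tissue, with no filter and without replicate 2, 3 or 4, and at 180 min that of ABI1 without replicate 1 and that of ABI2 without replicate 4. No member was called lower at any time with all replicates, and without replicate 3 HAI2 was lower in the adaxial petiole at 60 min (-1.36).

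**Figure D3:**
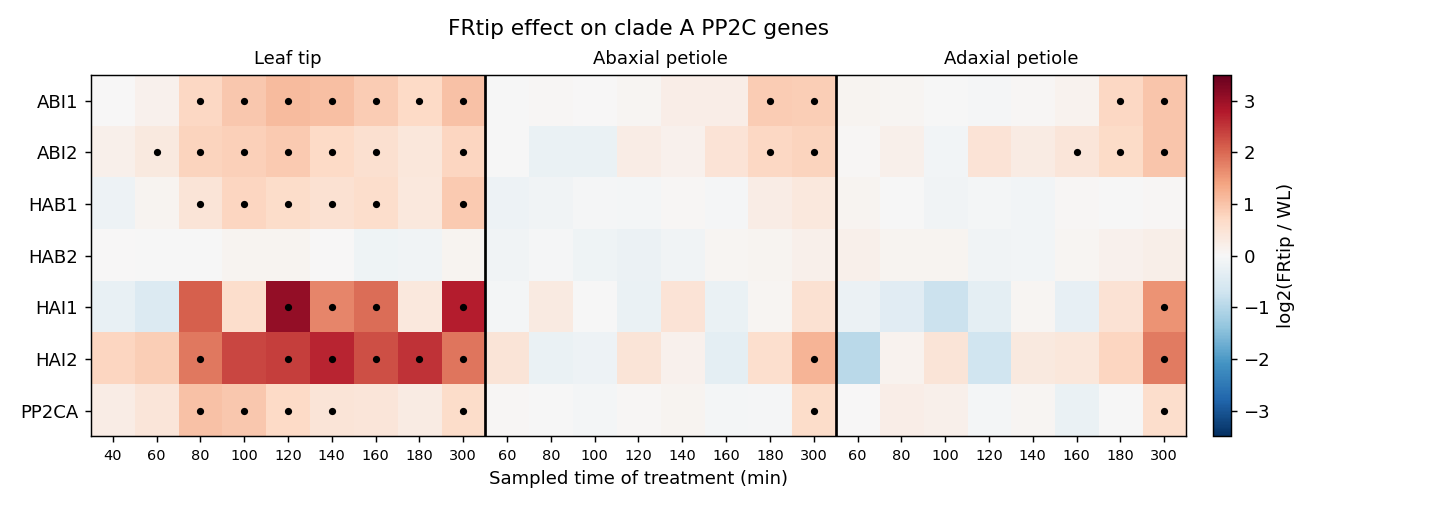
Log2 fold change (FRtip over WL, log2 of the normalized read count + 1) of the 7 tested members at each time point of the 3 tissues, as a colour, with a dot where the DEG rule was met. Dots start at 60 to 80 min in the leaf tip and at 160 to 180 min in the petiole, where several are lost by an adjusted p, and HAB2 has none.

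Whether the FRtip effect itself differed between tissues was tested in fits over both of them. These fits took the samples as independent, although same-numbered samples of different tissues shared some structure. The leaf tip effect exceeded that of the abaxial petiole at 60 to 80 min for 4 of 7 members (2.88% of genes) and at 100 to 180 min for 6 of 7 (8.25%). In the middle window the difference of log2 fold changes was 0.64 for ABI1 (adjusted p = 4.71e-10), 0.57 for PP2CA (1.28e-09), 0.55 for HAB1 (7.17e-08) and 2.3 for HAI2 (5.54e-09). For ABI2 it was 0.41 (0.00376, and 0.076 without replicate 1) and for HAI1 1.53 (0.00172, and 0.0938 without replicate 2). By edgeR HAI1 was not called, though its difference was 1.76. Its abaxial mean was 0 in FRtip at 120 min and in WL at 140 min, and with such groups that test says little. At 60 to 80 min the difference was 0.71 for PP2CA (2.83e-06), 0.70 for ABI2 (0.00431, and 0.199 without replicate 3), 0.44 for ABI1 (0.0234) and 0.42 for HAB1 (0.0369), the calls of ABI1 and HAB1 being lost without replicate 1, 3 or 4.

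At 300 min 0 of 7 members differed between leaf tip and abaxial petiole by limma (3.42% of genes did, with a larger effect in the leaf tip), with 2 at an unadjusted p below 0.05 (HAB1 and HAI1) and 0 called by edgeR. The difference was 0.16 for ABI1 (95% interval -0.21 to 0.53), -0.03 for ABI2 (-0.53 to 0.46) and 0.54 for HAB1 (0.17 to 0.91, adjusted p = 0.0759, and 0.0268 without replicate 2). For PP2CA it ran from -0.34 to 0.33. Between the abaxial and the adaxial petiole, 0 of 7 members differed in their FRtip effect in each window by limma and by edgeR (0%, 0.496% and 0.01% of genes in the 3 windows), with 1 (HAB2), 0 and 0 at an unadjusted p below 0.05. The abaxial minus adaxial difference at 300 min was -0.10 for ABI1 (95% interval -0.48 to 0.27), -0.19 for ABI2 (-0.75 to 0.37) and 0.03 for PP2CA (-0.31 to 0.38). For HAI1 the interval was widest, -2.26 to 0.17.

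In WL alone, the members differed in where they were expressed. Over 60 to 300 min PP2CA averaged 231 ± 28.1 in leaf tips, against 91.2 ± 10.4 abaxially and 89.4 ± 9.27 adaxially in the petiole (SD, n = 32 each). ABI1 averaged 197 ± 37.2, 73.5 ± 21 and 88.1 ± 20.9 in the same tissues, and ABI2 70.7 ± 8.99, 40.6 ± 8.58 and 37 ± 8.36. These 3 were thus higher in the leaf tip by log2 differences of 1.34 (PP2CA, adjusted p = 3.21e-50), 1.30 (ABI1, 4.05e-45) and 0.87 (ABI2, 7.96e-23) against the mean of both petiole sides. HAI2 was higher by 0.83 (1.01e-05), HAB1 by 0.33 (5.96e-15) and HAB2 by 0.14 (0.000146), and HAI1 differed by 0.18 (0.366, and by 0.94 with 0.0118 by edgeR). In all, 6 of 7 members were called higher in the leaf tip, as were 38.1% of genes. The WL fit over the 3 tissues, used here and between the petiole sides, took same-numbered samples of different tissues as independent.

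Abaxial and adaxial petiole differed for 4 of 7 members in WL, no larger a share than the 62.5% of all genes called in either direction. HAB2 was higher abaxially by 0.38 (adjusted p = 4.66e-14), with 129.7 ± 12 abaxially and 99.5 ± 11.4 adaxially. ABI1 was lower abaxially, by a log2 difference of -0.27 (2.1e-07), and so were HAI1 (-0.98, 5.35e-05) and HAI2 (-0.48, 0.0305). The call of HAI2 was lost without each of the 4 replicates in turn (0.0541 to 0.0708). It was also lost with a replicate block within time point and treatment (0.0502). PP2CA (0.03, 0.574), HAB1 (-0.05, 0.233) and ABI2 (0.14, 0.0826, and 0.0158 without replicate 1) did not pass.

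The WL levels also moved within the hours of the experiment, in both directions. HAB1 was lower at 300 min in all 3 tissues, with leaf tip means of 36.5 at 300 min and 156 at 60 to 80 min, abaxial means of 41.4 and 105, and adaxial means of 43.4 and 102. The log2 differences were -2.08 (adjusted p = 4.3e-21), -1.32 (1.06e-14) and -1.22 (7.91e-15). ABI1 was higher at 300 min in all 3, with means at these times of 259 and 164 in leaf tips (0.67, 5.98e-06), 118 and 54.3 abaxially (1.12, 1.7e-11) and 125 and 67.3 adaxially (0.89, 1.91e-08). HAI2 was higher by 1.88 in leaf tips (0.00211), 1.61 abaxially (0.000551) and 1.24 adaxially (0.0114, and 0.154 without replicate 3, 0.0529 without replicate 1). PP2CA was lower by a log2 difference of -0.33 in the abaxial petiole (0.0082, and 0.0856 without replicate 1). ABI2, HAB2 and HAI1 did not pass in any tissue. The members called were thus 3 of 7 in the leaf tip, 4 of 7 abaxially and 3 of 7 adaxially, and 28.5%, 25.2% and 22.2% of all genes were called in either direction.

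The other genes of the pathway were read from lists taken by name, here for the leaf tip at 100 to 180 min, where 12.4% of genes were called higher and 29.2% in either direction. Of the 14 PYR/PYL receptors, 9 were tested, and 1 rose and 5 fell, with a median log2 fold change of -0.48. PYL9 rose, with means of 60.2 in FRtip and 41.9 in WL (0.51 ± 0.10 SE, adjusted p = 1.91e-05). PYL5 fell, with 3.69 in FRtip and 10.4 in WL (-1.38 ± 0.26 SE, adjusted p = 1.47e-05), and PYL6 did, with 0.208 in FRtip and 2.61 in WL (-1.4 ± 0.26 SE, adjusted p = 1.97e-05). At 300 min in the petiole 2 of 9 fell on each side, where 4.51% of all genes fell abaxially and 1.98% adaxially. Among them was PYL4, by a log2 fold change of -1.77 ± 0.21 (SE, adjusted p = 1.14e-07) abaxially and -0.98 ± 0.19 (SE, adjusted p = 0.000544) adaxially (named after its values were seen). Of the 3 SnRK2 kinases of subclass III, again in the leaf tip at 100 to 180 min, SNRK2.6, the kinase of guard cell closure also called OST1, rose (0.44, 3.89e-07). SNRK2.3 (-1.07, 2.57e-12) and SNRK2.2 (-0.17, 0.00797) fell.

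Downstream, 4 of the 5 bZIP factors rose and 0 fell, with a median of 0.33, such as ABI5 with 7.02 in FRtip and 1.89 in WL (1.47 ± 0.24 SE, adjusted p = 1.48e-06) and ABF3 with 324 in FRtip and 188 in WL (0.78 ± 0.07 SE, adjusted p = 4.93e-15). Of 15 ABA response markers, 12 were tested and 9 rose, with a median of 1.4. At 300 min 9 rose in the leaf tip (5.26% of all genes did) and 2 on each petiole side (2.67% abaxially and 1.26% adaxially). AFP3 had 181 in FRtip and 14.4 in WL (3.58 ± 0.17 SE, adjusted p = 1.7e-25), and RD29A, a gene of drought, cold and ABA response, had 1749 in FRtip and 152 in WL (3.5 ± 0.14 SE, adjusted p = 1.58e-28). Of 9 ABA synthesis genes 6 were tested, and 3 rose and 1 fell (median 0.14), NCED3, an enzyme of the rate-limiting cleavage step, rising the most (2.11 ± 0.14 SE, adjusted p = 5.36e-19, 55.9 in FRtip and 12.4 in WL). ABA3 rose (0.33 ± 0.11 SE, adjusted p = 0.0199) and ABA2 fell (-0.31 ± 0.09 SE, adjusted p = 0.00454). Of the 4 CYP707A genes, which encode ABA 8'-hydroxylases of ABA breakdown, 3 rose (median 1.17), with CYP707A1 (1.34, 3.22e-05) and CYP707A4 (1.22, 4.73e-09) the most. Both sides of ABA turnover thus held genes that rose.

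Of 9 genes for proteins known to bind or act with clade A PP2Cs, 2 rose and 2 fell. HB6, a homeodomain factor that binds ABI1, had 1141 in FRtip and 706 in WL (0.68 ± 0.04 SE, adjusted p = 4.18e-20), and the anion channel gene SLAC1 had 60.1 in FRtip and 41.3 in WL (0.53 ± 0.09 SE, adjusted p = 2.5e-06). AT1G67800 (-0.75, 1.78e-10) and AT5G22090 (-0.39, 1.45e-06) fell. Among 61 other genes annotated as PP2Cs, 53 were tested, and 11 rose and 6 fell, with a median of 0.10. At 300 min 6 of the 53 rose in the leaf tip, 4 abaxially and 2 adaxially, beside the shares of all genes of 5.26%, 2.67% and 1.26%. AT5G02760 (1377 in FRtip and 263 in WL, 2.39 ± 0.12 SE, adjusted p = 4.66e-25) and AT3G05640 (263 in FRtip and 51 in WL, 2.33 ± 0.08 SE, adjusted p = 2.07e-32) had larger log2 fold changes than each tested member but HAI2. AT3G16560 (-0.50, 0.000561) and PBCP, a phosphatase of photosystem II proteins (-0.33, 6.22e-08), fell the most.

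**Figure D4:**
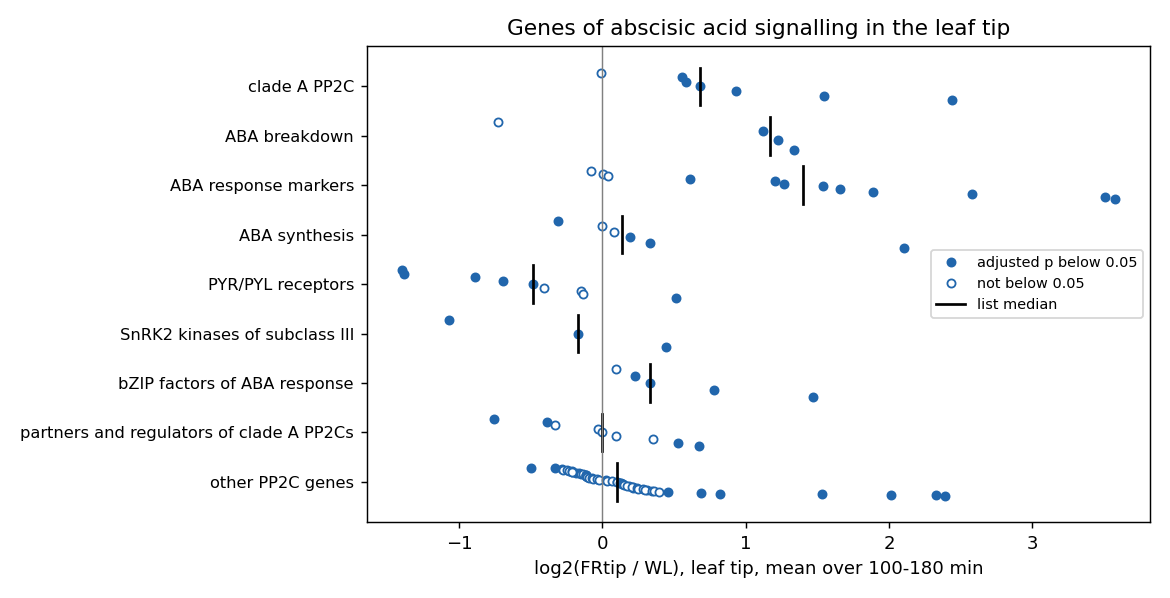
Log2 fold change (FRtip over WL) in the leaf tip at 100 to 180 min for each tested gene of the clade A PP2Cs, the ABA pathway lists and the other PP2Cs, with a point per gene, filled where the adjusted p is below 0.05, and a bar at each list's median. The medians run between -0.48 for the receptors and 1.40 for the response markers, with 0.68 for the clade A PP2Cs and 0.10 for the other PP2Cs.

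Guard cells are a site of ABA signaling, and some of their marker genes moved with the leaf tip results. The summed level of MYB60, FAMA, KAT1, HT1 and SLAC1 ran between 426 and 1467 in FRtip (median 764) and between 278 and 540 in WL (median 445), with none of the 5 at 0. KAT1, a potassium channel gene, rose the most, with 846 in FRtip and 145 in WL at 40 to 80 min (log2 fold change 2.55). At 100 to 180 min KAT1 and SLAC1 rose, FAMA fell (-0.25), and MYB60 and HT1 were not called. Of the 4 phloem markers (SUC2, APL, SWEET11 and SWEET12), 3 fell there, and their summed level had a median of 692 in FRtip and 909.9 in WL. In the petiole the guard cell genes summed to a median of 82.8 in FRtip and 61.3 in WL abaxially, and to 193 in FRtip and 186 in WL adaxially. The part of these cell types in the members' values was not tested.

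Within the leaf tip, the course over the 18 treatment and time point means gave another view of the members. These means share libraries, treatment and time of day, so the correlations only describe likeness over those 18 points. Among 15526 genes with a leaf tip mean of at least 10, the gene closest to ABI1 was HAI2 (Pearson r of 0.951), followed by NAC019 (0.945). The closest to ABI2 was PP2CA (0.932), followed by KICP-02 (0.919), and the closest to PP2CA was ABI2, followed by KAT5 (0.926). HAI2 was closest to AT4G30350 (0.959), APC11 (0.956) and then ABI1. HAB1 was closest to AT4G25280 (0.967) and AT3G21670 (0.961), and its r to ABI1 was -0.075. HAB2 had no close match, the highest being AT1G07220 (0.765) and AT3G66652 (0.758).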

How the data were processed

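RNA was sequenced from leaf tip, abaxial and adaxial petiole samples with the strand-specific BrAD-seq method. Per the submitters' processing notes, FastQC, STAR, Picard, HTSeq and DESeq were used with the TAIR10 build, with no role or order given. The authors deposited DESeq2-normalized signal, in which each gene's reads were divided by the size factor of the sample (0.308 to 2.68). Each value is a multiple of what 1 read is worth in its sample, which gave whole reads back for 100% of the values (tolerance 0.001). Tests were run in R 4.3.3 with limma 3.58.1 on log2(normalized read count + 1), for the 19964 loci with a mean of at least 1, in 1 fit per tissue over means of treatment by time point. They were two-sided, with Benjamini-Hochberg adjustment over all genes and calls at an adjusted p below 0.05. The p-values measure the spread between these pooled samples. The DEG rule used a limma fit per time point. The 5 petiole samples at 40 min were not tested, since no group of them held more than 2.

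Alternatives were edgeR 4.0.16 (quasi-likelihood) on the recovered reads, smaller and larger pseudocounts (0.5 and 5), no filter or a stricter one (mean of at least 10), samples centred on their median, replicate blocks, and fits with 1 replicate left out. Over 297 pairs of replicates, squared differences were 1.38 or more times what counting error gives, so none was counted as a repeat. The limma fits of the windows within a tissue were tried on simulated counts with known changes, and the other tests were not. Intervals of summed reads are exact binomial at 95% and cover counting error only, since reads carried no molecular identifiers. Python 3.11.15 (NumPy 2.4.6, pandas 2.3.3, SciPy 1.17.1) made the tables, and matplotlib 3.10.9 drew the figures. The members and the lists were chosen with earlier results of these data known. All 9 members were named, and of each pathway list the 2 genes that rose the most and the 2 that fell the most among those called in the leaf tip at 100 to 180 min. For members with a leaf tip mean of at least 10, the 2 genes of highest Pearson r were named. Promoter sequences came from the TAIR10.1 genome, by gene identifier.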

Additional observations from a re-analysis of the deposited data

Results flagged for a closer look

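In 8 of the 257 groups of 4 samples with values of a member, the highest or lowest sample stood apart from the others by Dixon's test, where chance gives about 1 in 20. ABI1 stood at 157 in 1 FRtip sample of the adaxial petiole at 160 min and at 261 in 1 FRtip sample of the leaf tip at 180 min. ABI2 stood at 66.0 in the abaxial petiole at 120 min and at 109 in the leaf tip at 140 min, both in FRtip. HAB1 stood at 77.8 in FRtip in the adaxial petiole at 180 min and at 137 in WL in the leaf tip at 120 min. HAB2 stood at 87.6 in FRtip and at 119 in WL, both in the abaxial petiole at 120 min.

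The FRtip effect differed between windows of 1 tissue, or between 2 tissues, by a limma contrast at an adjusted p below 0.05 in 17 cases. In the leaf tip it was larger at 100 to 180 min than at 40 to 80 min by 0.63 on the log2 scale for ABI1, 0.46 for HAB1 and 1.29 for HAI2. At 300 min it was larger than the mean of 100 to 180 min by 0.57 for ABI1 and 0.66 for PP2CA in the abaxial petiole. In the adaxial petiole the difference was 0.79 for ABI1 and 0.62 for PP2CA. Relative to the abaxial petiole at 60 to 80 min, the leaf tip effect was larger by 0.44 for ABI1, 0.70 for ABI2, 0.42 for HAB1 and 0.71 for PP2CA. At 100 to 180 min it was larger by 0.64 for ABI1, 0.41 for ABI2, 0.55 for HAB1, 1.53 for HAI1, 2.3 for HAI2 and 0.57 for PP2CA.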

How the results depend on the processing

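No result changed direction past its threshold under any alternative run, and the 6 calls of the leaf tip at 100 to 180 min held in each of them except that a mean of at least 10 leaves HAI1 and HAI2 untested. Leaving out a replicate gave 2 to 4 called members in the leaf tip at 40 to 80 min (4 with all replicates), 1 to 2 abaxially (2) and 0 to 1 adaxially (1) at 100 to 180 min, and 2 to 4 adaxially at 300 min (4). For the growth of the effect to 300 min it gave 1 to 2 members in the abaxial petiole (2) and 1 to 2 in the adaxial petiole (2), and edgeR or a pseudocount of 5 gave 4 adaxially. For the leaf tip minus abaxial difference it gave 1 to 5 at 60 to 80 min (4) and 0 to 1 at 300 min (0). With no filter on low counts, or with samples centred on their median, 1 member was called abaxially at 100 to 180 min. With a mean of at least 10, 2 members were called between the petiole sides in WL, against 4. Calling by an adjusted p below 0.05, and not by the DEG rule, lowered the count of called members at 11 of 25 time points, and gave between 0 and 1422 genes per time point, where the rule gave between 131 and 2202. A fit of the whole tissue in place of 1 per time point gave 411 for 237 genes in the abaxial petiole at 100 min, 280 for 144 in the adaxial petiole and 2374 for 1420 in the leaf tip. HAI1 and HAI2 rest on few reads, and HAI3 and AHG1 are below what this depth can compare.

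The replicate numbers were not taken as pairs, since not every pair correlated above 0.1, though the samples share some structure by number. The correlation of FRtip with WL deviations of the same number was 0.165 at the median abaxially (24 of 32 pairs over 0.1), 0.161 adaxially (27 of 32) and 0.0816 in leaf tips (11 of 35), and that of other numbers was -0.0613, -0.0527 and -0.0245. The FRtip sample correlated best with the WL sample of its own number in 21 of 32 cases abaxially, 32 of 32 adaxially and 29 of 36 in leaf tips, and replicate 2 had the lowest share of organelle reads in 44 of 50 conditions. With the replicate block, 2, 1 and 6 members were called at 100 to 180 min in the abaxial petiole, adaxial petiole and leaf tip, and the count of all called genes moved by over 1.5 times in 4 of 26 comparisons, among them 13 for 1 gene in the adaxial petiole at 60 to 80 min. By the DEG rule the block changed the count of members at 5 of 25 time points. HAI1 passed in the adaxial petiole at 300 min under it (adjusted p = 0.0424). Across tissues, deviations of the same number correlated at a median of 0.148 in FRtip and 0.161 in WL between the petiole sides. Between leaf tip and abaxial petiole the medians were 0.0735 and 0.074. The fits over both tissues left this out. With a block within time point and treatment, 1 member (HAB1) differed between leaf tip and abaxial petiole at 300 min, and none between the petiole sides. With it, 214 genes differed between the petiole sides at 100 to 180 min, where the main fit gave 99.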

Other observations

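The 5 petiole samples of 40 min were in no comparison. ABI1 had 54.7 normalized read counts in the FRtip sample and 55.6 in the WL sample of the abaxial petiole, and 61.5 in the FRtip sample and 71.3 and 59.7 in the WL samples of the adaxial petiole. ABI2 had 30.1 in FRtip and 36.4 in WL abaxially, and 37.8 in FRtip and 39.3 and 29.5 in WL adaxially. PP2CA had 101.5 in FRtip and 98.1 in WL abaxially, and 101.1 in FRtip and 100.8 and 64.9 in WL adaxially. HAB1 lay between 106 and 124 and HAB2 between 104 and 137 in the 5 samples, HAI1 and HAI2 had at most 2.64, and HAI3 and AHG1 were at 0 in each.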
